A study of Mus musculus with 62 samples.

Results

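Osteopontin-high and osteopontin-low cells were the 12 libraries with the most and the 12 with the least Spp1 among the 50 libraries of a pancreatic cancer cell culture that passed a spike-in limit of 20%, so the 24 cells were selected on Spp1 itself. The series held 62 libraries, each made from 1 cell. The cells belong to KPC1199-EGFP, a line from a mouse pancreatic tumour on a C57BL\6 background, which expresses the green fluorescent protein EGFP. All cells came from 1 adherent culture at passage 9, were kept in DMEM with serum and antibiotics, and received no treatment, so high, low and middle cells shared line, genotype, medium and passage. Cells were detached with trypsin, captured and amplified on a Fluidigm C1 chip, and sequenced after Nextera XT library construction. Libraries were ranked by Spp1 in CPM (counts per 1000000 counts of all gene rows), a total without the ERCC spike-ins, which are synthetic RNAs added to each reaction. The 26 cells between both ends served for description alone. Libraries are called by the running number in their title, which is separate from the label number used below as a possible plate place. Library 19, for example, has label number 27. Cells of 1 culture are not replicates of a condition, so no p-value is given, and each difference describes these cells.

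Osteopontin, the product of Spp1, is a secreted phosphorylated glycoprotein that carries an RGD motif, binds integrins such as αvβ3 and αvβ5 as well as CD44, and is cleaved by thrombin and matrix metalloproteinases. It was first known from bone matrix, is made by macrophages and by injured or ductal epithelium, and is abundant in pancreatic tumours, where both cancer cells and macrophages can produce it. Transcription factors of the RUNX, ETS and AP-1 families, HIF-1 and MYC are among its described regulators.

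The Spp1 promoter is shown because the cells were ranked on this gene, and those of Pgk1 and Bnip3 because they are the 2 hypoxia-responsive genes with the highest levels among those at least 2-fold higher in osteopontin-high cells. Each line gives the 250 bases upstream of the RefSeq start in GRCm38.p6, 5′ to 3′ on the gene's strand; the deposited counts refer to mm9, so nothing was joined by coordinate. In Spp1 (chr5:104434861-104435110, plus strand), capitals mark TGTGGT, a RUNX core read on the minus strand at −128 to −123, and GGAAGT, an ETS core at −111 to −106. In Pgk1 (chrX:106186850-106187099, plus strand) and Bnip3 (chr7:138909507-138909756, minus strand), capitals mark ACGTG, the core of a hypoxia response element; in Bnip3 2 matches on opposite strands overlap as 1 palindrome.
Spp1: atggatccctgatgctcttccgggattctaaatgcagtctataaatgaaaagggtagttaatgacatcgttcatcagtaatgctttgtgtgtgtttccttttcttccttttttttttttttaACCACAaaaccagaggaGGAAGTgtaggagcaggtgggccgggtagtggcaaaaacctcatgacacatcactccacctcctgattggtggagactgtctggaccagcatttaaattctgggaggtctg
Pgk1: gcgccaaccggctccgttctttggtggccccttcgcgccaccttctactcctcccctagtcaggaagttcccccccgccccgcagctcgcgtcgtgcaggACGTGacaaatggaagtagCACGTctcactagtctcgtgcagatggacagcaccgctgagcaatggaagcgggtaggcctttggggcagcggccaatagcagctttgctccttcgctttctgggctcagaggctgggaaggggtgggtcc
Bnip3: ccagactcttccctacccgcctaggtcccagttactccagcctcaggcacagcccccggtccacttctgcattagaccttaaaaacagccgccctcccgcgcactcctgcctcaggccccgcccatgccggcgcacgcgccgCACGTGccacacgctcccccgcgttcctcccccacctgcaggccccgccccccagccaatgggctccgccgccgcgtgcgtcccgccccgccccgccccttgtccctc
Searched on both strands over the same 250 bases of 32851 RefSeq promoters, TGTGGT occurred in 14.1%, GGAAGT in 19.7% and ACGTG in 16.6%, so none of these letters is rare. The AP-1 letters TGANTCA, present in 6.75% of promoters, were not found in this Spp1 window. ACGTG was present in 6 of the 9 hypoxia-list promoters whose genes were at least 2-fold higher in osteopontin-high cells and in 6 of 14 matched ones whose genes were within 2-fold.

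Spp1 ran from 22469 to 86975 CPM (median 27077) in the high set, from 6158 to 21987 CPM (median 10408) in the 26 middle cells and from 147 to 5135 CPM (median 3154) in the low set. These values chose the cells and carry no test; the median of the high set was 8.59 times that of the low set. Osteopontin transcripts thus took 2.25% to 8.70% of all gene counts in high cells and 0.0147% to 0.513% in low cells. The limits fell within a continuous range: the lowest high cell, library 2, had 22469 CPM and the next cell below it, library 28, had 21987 CPM, while the highest low cell, library 48, had 5135 CPM and the next above it, library 16, had 6158 CPM. Only the ends stood apart. Library 19 had 86975 CPM against 41136 CPM in library 44, the next highest. At the other end, libraries 5, 14, 35 and 7 had 147, 183, 529 and 743 CPM, and the fifth lowest had 2348 CPM.

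**Figure D1:**
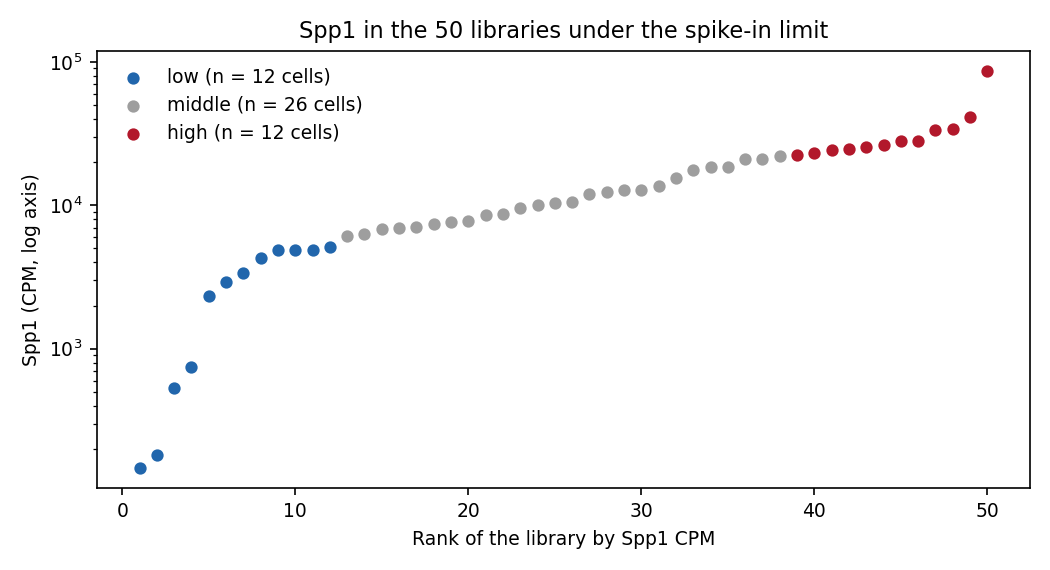
Spp1 level (CPM, log axis) of each of the 50 libraries under the spike-in limit, ordered by rank; each point is 1 cell, coloured as low (12), middle (26) or high (12). The curve is continuous at both set limits, with library 19 alone at 86975 CPM and 4 cells between 147 and 743 CPM.

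Both sets were sequenced to similar depth, with a median of 7035850 gene counts (3838860 to 12868800) in high and 7895880 (5612190 to 10902900) in low cells. After thinning each cell to 2000000 gene counts, high cells held a median of 8368 detected genes (6726 to 10069) and low cells 8180 (6168 to 9061). Gene counts per spike-in count, a measure of RNA recovered from the cell, were 186 at the median in high cells (65.2 to 333) and 123 in low cells (53.6 to 252), and had a Spearman rho of 0.35 with Spp1 over the 50 cells. Spp1 itself came to 5.47 counts per spike-in count (2.96 to 9.61) in high and 0.306 (0.00978 to 1.23) in low cells, while the middle cells, at 0.422 to 10.1, overlapped both sets on this scale. The part of recovered RNA in the differences between the sets was not tested. By label number, taken in 8 runs of 12 as a possible place on the plate, high cells were 3, 1, 4, 1, 0, 2, 1 and 0 and low cells 3, 1, 0, 3, 1, 1, 2 and 1.

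**Figure D2:**
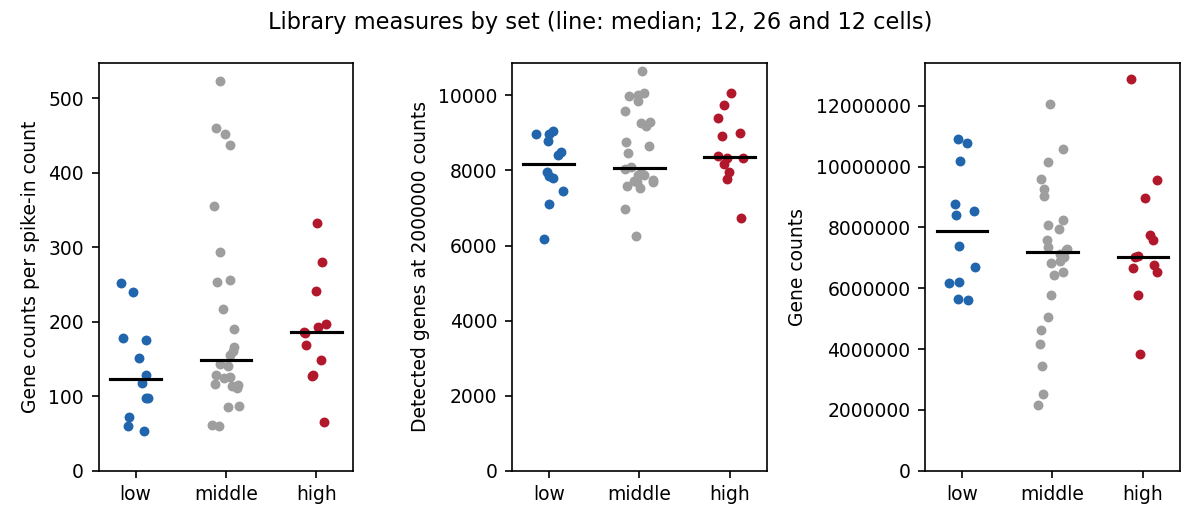
Gene counts per spike-in count, detected genes after thinning to 2000000 counts, and total gene counts, for low, middle and high cells; each point is 1 cell and each line the median of its set. The sets overlap in all 3 measures, and the median of the first is 123 in low and 186 in high cells.

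Of 12011 other genes above 0 in at least 10 of the 50 libraries, 1655 (13.8%) were at least 2-fold higher and 958 (7.98%) at least 2-fold lower in osteopontin-high cells, on the scale of the mean log2(CPM + 1). The median difference over all of them was 0.03. No gene besides Spp1 separated the sets without overlap. The balance of both directions depended on the scale. Of the 2-fold differences, 63.3% were higher with CPM and 83.9% when counts were scaled to the spike-ins. The share was 48.7% when the number of detected genes was regressed out. Spike-in scaling put the median difference of all genes at 0.36. All 12011 genes compared were above 0 in a mean of 8.89 high and 8.46 low cells.

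The gene with the largest difference was 8430408G22Rik, the former name of Depp1, a FOXO-responsive regulator of autophagy. High cells ranged from 27.1 to 2442 CPM (median 594) and low cells from 0 to 224 CPM (median 0), a difference of 7.21 on the log2(CPM + 1) scale, with the middle cells at a median of 115 CPM. It was above 0 in 12 of 12 high cells (exact 95% interval 73.5% to 100%) and in 4 of 12 low cells (33.3%, 9.92% to 65.1%), both before and after thinning, and 10 of the 12 high cells exceeded every low cell. The 4 positive low cells were libraries 7, 47, 6 and 55. Its rho with Spp1 was 0.65 over the 50 cells, which include the 24 ranked for it, and 0.25 within the 26 middle cells.

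Several surface and membrane genes were higher with it. Ly6a encodes Sca-1, a GPI-anchored protein used to mark stem and progenitor cells. It spanned 0 to 3536 CPM (median 1518) in high and 0 to 2191 CPM (median 21.8) in low cells, a difference of 5.62; library 1 was the only high cell at 0, and 7 of 12 low cells were above 0. Its relative Ly6e had a median of 1461 CPM (119 to 2804) in high and 255 CPM (107 to 1906) in low cells, a difference of 2.06. Ly6a, Ly6c1 (2.73 higher) and Ly6e belong to a family of similar sequence, so their split of shared reads is uncertain. Upk1b, a tetraspanin of the urothelial plaque, ranged from 0 to 1906 CPM (median 206) in high and from 0 to 527 CPM (median 0) in low cells, a difference of 4.46, and was above 0 in 8 and 5 cells. In the other direction went Tspan13, also a tetraspanin, with 0 to 671 CPM (median 29.3) in high and 0 to 950 CPM (median 410) in low cells, a difference of −3.50. Cd81 and Tspan1, 2 more tetraspanins, differed by −1.97 and −1.91. Over the whole list of 16 surface genes compared, 5 were at least 2-fold higher and 3 at least 2-fold lower, with a median of 0.20, beside 13.8% and 7.98% of all genes.

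Tmem176a and Tmem176b, 2 related membrane proteins, lay in opposite directions from starts 346 bases apart on chromosome 6 in GRCm38.p6. Tmem176b ran from 449 to 1562 CPM (median 798) in high cells and from 0 to 1480 CPM (median 290) in low cells, and Tmem176a from 166 to 741 CPM (median 328) and from 0 to 455 CPM (median 83.2). The low set was split rather than shifted: libraries 35, 47, 30, 41 and 32 had under 1 CPM of either gene, while the other 7 had at least 233 CPM of Tmem176b. The 4 cells with the least Spp1 were on both sides of this split. The pair moved together across the 50 cells (rho 0.82) and within the 26 middle cells (rho 0.79). Whether reads were counted by strand is not given in the sources used here and the part of shared reads in this likeness was not tested.

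Enzymes and signalling genes made up much of the rest of the 20 genes highest in osteopontin-high cells. Mgst1, a microsomal glutathione transferase, had 0 to 767 CPM (median 141) in high and 0 to 189 CPM (median 0) in low cells, a difference of 4.83. Plat, the tissue plasminogen activator, had 0 to 1253 CPM (median 495) against 0 to 568 CPM (median 15.4), a difference of 4.31. Ptgs2, the inducible cyclooxygenase, had 0 to 353 CPM (median 70.3) against 0 to 141 CPM (median 0), a difference of 3.57. All 3 overlapped between the sets, and 8 to 12 high cells expressed each of the 20 genes, compared with 1 to 9 low cells. Bmp4, a secreted TGF-β family ligand, differed by 4.12, the phosphatase Ptpn13 by 4.22, the p38-activating kinase Map2k6 by 3.89 and the protein kinase A subunit Prkar2b by 3.57. Ccdc109b (now Mcub, a component of the mitochondrial calcium uniporter) differed by 3.83, Dirc2 (now Slc49a4, a lysosomal transporter) by 3.88, Cep44, a centrosomal protein, by 3.60 and Tuba1a, an α-tubulin with near-identical copies, by 3.55. The uncharacterised 1700016C15Rik, above 0 in 11 high cells and 1 low cell, differed by 4.58 and the zinc finger gene Zfp35 by 3.87. Leaving out any 1 of the 24 cells left all 20 past 2-fold. With differences of at least 3.55, 1 cell of 12 could hardly change this, so it lends no separate support. In the 26 middle cells 19 of the 20 had a positive rho with Spp1 (median 0.20), as did 57.8% of all genes.

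**Figure D3:**
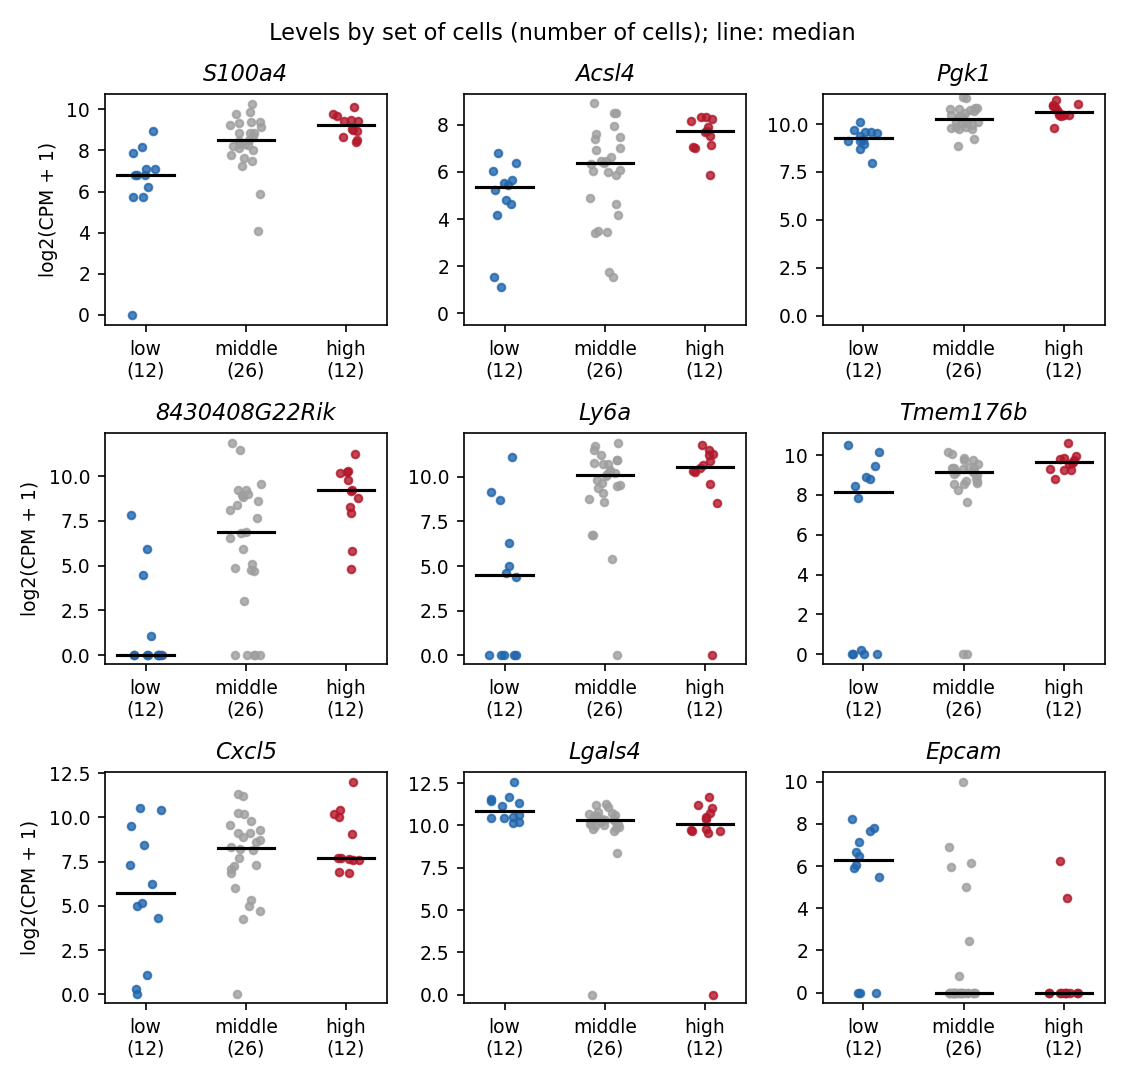
Level (log2(CPM + 1)) of 9 genes in low (12), middle (26) and high (12) cells; each point is 1 cell and each line the median. S100a4, Acsl4 and Pgk1 differ as graded levels, and 8430408G22Rik, Ly6a, Tmem176b and Epcam as cells at or near 0 against cells with transcript. Cxcl5 overlaps widely. For Lgals4 all 12 low cells lie above the median of the high cells, and the sets overlap above it.

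A different view ranked genes by their rho with Spp1 over the 50 cells, which favours graded genes present in most cells. All points share the culture, and some share depth. S100a4, a calcium-binding protein of motile and mesenchymal cells, came first with a rho of 0.73; it had 335 to 1115 CPM (median 601) in high, a median of 360 CPM in middle and 0 to 493 CPM (median 111) in low cells. In all, 9 of the 12 high cells exceeded every low cell, and the rho within the 26 middle cells, which are part of the 50, was 0.49. Acsl4, which activates arachidonic acid for incorporation into phospholipids, followed with a rho of 0.63 (0.47 in the middle cells) and levels of 57.2 to 324 CPM (median 211) in high against 1.18 to 112 CPM (median 39.8) in low cells. Here 11 of 12 high cells exceeded every low cell. The glycolytic kinase Pgk1 had the same rho of 0.63 but only 0.09 in the middle cells. The remaining genes among the 10 of highest rho were 8430408G22Rik, Fbln1, 1700016C15Rik, Ptpn13, the lysine methyltransferase Setd7, the neuron navigator Nav2 and Ly6a. Their median rho was 0.60 over the 50 cells that chose them and 0.31 over the 26 of these in neither set, which lends the choice no separate support.

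At the negative end, Fam101b (now Rflnb, refilin B, which organises actin through filamin) had a rho of −0.60 over the 50 and −0.52 over the 26 middle cells. It had 0 to 106 CPM (median 26.6) in high and 0 to 199 CPM (median 131) in low cells, a difference of −2.30. Arf6, a small GTPase of membrane traffic, had 7.58 to 132 CPM (median 61.2) in high against 85.6 to 261 CPM (median 175) in low cells, a difference of −1.48. Mitochondrial genes were present in the pair of, the cytochrome oxidase subunit Cox5a (rho −0.60, difference −0.71) and Sucla2 of the citric acid cycle (rho −0.54, difference −1.74), as was the zinc transporter Slc39a7 (rho −0.53, difference −1.72). Snrpa1, Stard10, Gipc1, Tmem64 and Rpl4 completed the 10, whose median rho was −0.56 over the 50 cells that chose them and −0.39 over the 26 of these in neither set. Snrpa1 was past 2-fold only with library 21, at −1.08 with it and −0.91 without it. Cox5a, Stard10 and Rpl4 were within 2-fold.

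The 20 genes most lower in osteopontin-high cells, among those above 0 in at least 12 of the 24 cells, were above 0 in 3 to 10 high cells and in 8 to 12 low cells. Sptssb, a small subunit of serine palmitoyltransferase, which starts sphingolipid synthesis, came first of these with 0 to 205 CPM (median 29.9) in high and 13.8 to 2331 CPM (median 207) in low cells, a difference of −3.63. Isx, an intestinal homeobox factor, was above 0 in 3 high cells and 9 low cells (difference −3.60). Pdlim1, an actin-associated adaptor, had 0 to 289 CPM (median 97.9) against 82.4 to 1155 CPM (median 468), a difference of −2.83 with transcript in every low cell. Ppp1r1b, the phosphatase inhibitor DARPP-32, had 0 to 221 CPM (median 17.7) against 0 to 452 CPM (median 207), a difference of −2.96. The transporter Slc43a3, the procollagen proteinase enhancer Pcolce2, the talin paralogue Tln2, the ubiquitin ligases Rnf34 and Rnf103, the adhesion scaffold Nedd9, the homeobox factor Nkx2-3, the ADP-ribosyltransferase Tiparp, Polm, 4931406C07Rik, Ppic, Stard5, Polr3e, Adamtsl5 and Arhgdig lay between −3.56 and −2.64. None lost its 2-fold difference when any 1 cell was left out. With differences of −2.64 or beyond, 1 cell of 12 could hardly change this, so it lends no separate support. In the middle cells the rho with Spp1 was negative for 7 of 20, with a median of 0.07.

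**Figure D4:**
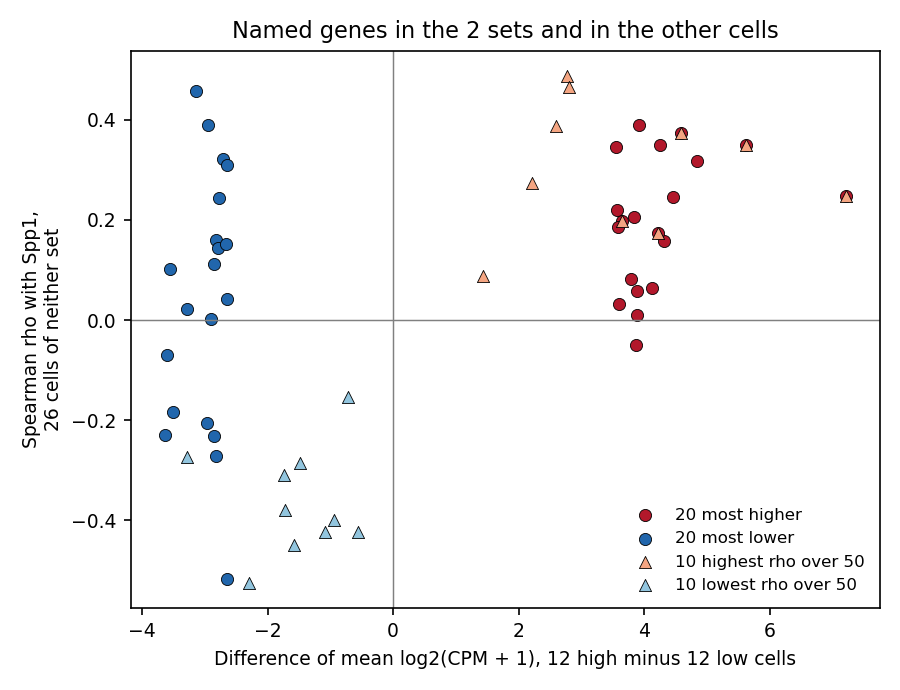
Difference between 12 high and 12 low cells (mean log2(CPM + 1), x axis) against Spearman rho with Spp1 in the 26 cells of neither set (y axis), for the 20 genes most higher, the 20 most lower and the 10 of highest and lowest rho over 50 cells; each point is 1 gene. Of the 20 most higher genes 19 lie above 0 on the y axis, and of the 20 most lower genes 7 lie below it.

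Osteopontin receptors were mostly alike in both sets. Of 11 receptor genes 8 were compared, and 2 were at least 2-fold higher: Itgb3, the β3 partner of αv, with 0 to 91.9 CPM (median 14.9) in high and 0 to 21.7 CPM (median 1.79) in low cells (difference 1.73), and Itgb5, the β5 partner, with 0 to 89.1 CPM (median 38.8) against 0 to 184 CPM (median 6.20) (difference 1.69). Within the middle cells their rho was −0.01 and −0.13. With a pseudocount of 10 CPM neither was past 2-fold. Other receptors were within 2-fold. Itgav had 15.3 to 115 CPM (median 50.3) in high and 9.44 to 146 CPM (median 30.6) in low cells, Itgb1 medians of 252 and 255 CPM, and Cd44 medians of 163 and 151 CPM. Itgb6, Itga4 and Itga5 were within 2-fold as well, Itga9 was under the detection minimum, and Itgb8 and Itga8 were at 0 in all 50 libraries. The median difference of the 8 was 0.19, and the 2 higher and none lower stood beside 13.8% and 7.98% of all genes. CPM is not corrected for transcript length, so these levels rank no receptor against another.

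Among 14 genes of the osteopontin family and its modifying enzymes, 5 were compared. Of these, 2 were at least 2-fold higher and none lower, beside 13.8% and 7.98% of all genes. Besides Plat, Fam20c, the secretory kinase that phosphorylates osteopontin, was past 2-fold, at 1.22, with 6 high and 5 low cells above 0; without library 2 the difference was 0.84, and it was also under 2-fold without library 18, 3 or 42. Tgm2, a transglutaminase that crosslinks it, differed by 0.93, and Plau, urokinase, by 0.27. The related matrix genes Ibsp and Dspp, the metalloproteinases Mmp3, Mmp7 and Mmp9, and plasminogen (Plg) were at 0 in all 50.

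The 30 compared genes reported to regulate Spp1 divided, with a median of 0.09. Of these, 7 were at least 2-fold higher and 4 at least 2-fold lower, beside 13.8% and 7.98% of all genes. Runx1 and Runx2 were the RUNX factors past 2-fold. Runx1 had 9.49 to 304 CPM (median 63.2) in high and 0 to 96.3 CPM (median 36.03) in low cells (difference 1.67), and Runx2 had 2.18 to 73.4 CPM (median 24.5) against 0 to 57.5 CPM (median 5.004) (difference 1.60); every high cell had transcript of both. Neither call held in every setting: with a pseudocount of 10 CPM the differences were 0.91 and 0.56, by the ratio of mean CPM 0.93 and 0.45, and without the 4 lowest cells 0.92 and 0.71, and Runx1 came to 0.85 by medians. In the middle cells their rho with Spp1 was 0.17 and 0.28. The ETS genes went both ways, with Ets1 (1.42) and Etv4 (1.29) higher and Etv5 (−1.52) lower. The same held for AP-1, where Junb, at 1.75, was higher, and Fos was lower, with 0 to 639 CPM (median 206) in high and 71.6 to 1901 CPM (median 476) in low cells (difference −2.45). Fosb followed Fos at −1.85, and these 2 genes had a rho of 0.57 over the 50 cells. With a pseudocount of 10 CPM, Ets1, Etv4, Etv5 and Fosb were under 2-fold. By the ratio of mean CPM Junb came to 0.77, and Etv5 and Fosb were again under 2-fold.

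Hif1a, the hypoxia-inducible factor, had 19.9 to 370 CPM (median 129) in high and 0 to 308 CPM (median 88.5) in low cells, a difference of 1.36 that was 0.86 without library 30. Hif1a was also under 2-fold with a pseudocount of 10 CPM, by medians and by the ratio of mean CPM (0.52). Myc differed by 1.35 and by 0.93 without library 5, and also came under 2-fold without library 14 or 55 and with a pseudocount of 10 CPM. The epithelial ETS factor Elf3 differed by −1.10 and by −0.61 without library 24, with 4 more cells (44, 5, 14 and 32) whose absence also brought it under 2-fold. Sp1, Rela, Stat3, Smad3, Ctnnb1, Tcf7l2, Sox9, Yap1 and Tead1 were among the 19 within 2-fold. Vdr was under the detection minimum and Gli2 at 0 in all 50 libraries.

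Glycolysis and hypoxia genes were past 2-fold in one direction: of 24 compared, 9 were at least 2-fold higher and none lower, beside 13.8% and 7.98% of all genes, and the list's median difference was 0.56 against 0.03. Pgk1 ran from 878 to 2417 CPM (median 1609) in high and from 246 to 1095 CPM (median 620) in low cells, a difference of 1.43, and 11 of 12 high cells exceeded every low cell. Bnip3, a mitochondrial receptor for mitophagy, had 0 to 2285 CPM (median 243) against 0 to 164 CPM (median 33.1), a difference of 2.90. Library 19, the cell with the most Spp1, held 44.9% of the Bnip3 sum in the high set, the next cell had 586 CPM, and library 18 had none. Pdk1, which restrains pyruvate entry to mitochondria, had 3.76 to 149 CPM (median 68.6) against 0 to 69.8 CPM (median 24.98), a difference of 1.81. Vegfa, the angiogenic growth factor, had 0 to 92.7 CPM (median 59.7) against 0 to 48.5 CPM (median 14.7), a difference of 1.55. The phosphofructokinase Pfkp (2.95), the oxygen sensor Egln3 (2.92), Ankrd37 (2.91), the collagen prolyl hydroxylase subunit P4ha1 (1.31) and the disulphide oxidase Ero1l, now Ero1a (1.36), were the others. Ero1l came to 0.93 without library 7 and equally without library 30.

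The same list did not follow Spp1 among the middle cells, where 7 of 24 members had a positive rho and the median was −0.15. Bnip3 had a rho of 0.35 over the 50 cells and −0.32 over the 26. Bnip3 and Pgk1 had a rho with each other of 0.61 over the 50 and 0.41 over the middle cells.

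**Figure D5:**
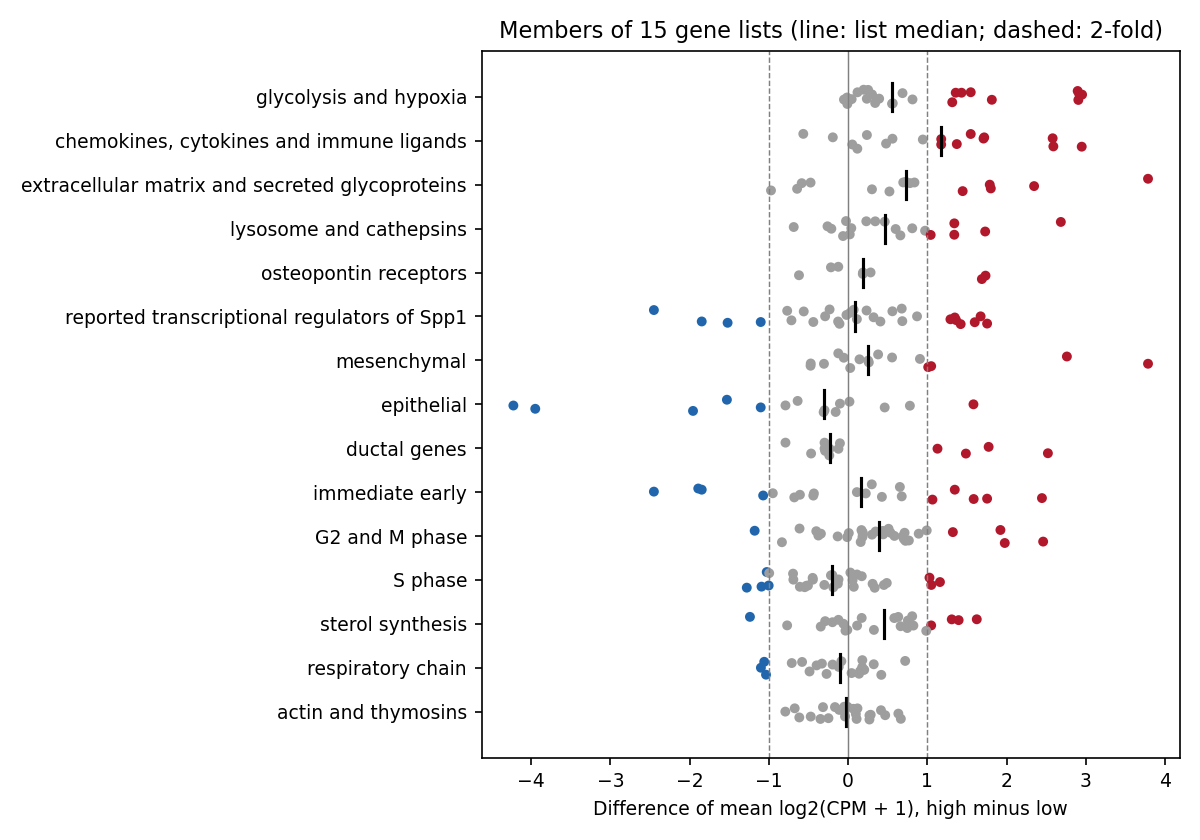
Difference between high and low cells (mean log2(CPM + 1)) of each compared member of 15 gene lists; each point is 1 gene (red at least 2-fold higher, blue at least 2-fold lower, grey within 2-fold), black lines are list medians and dashed lines 2-fold. Points past 2-fold lie on the right alone in the hypoxia, chemokine, matrix, lysosome, receptor, mesenchymal and ductal lists. In the respiratory chain list they lie on the left alone.

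Chemokines and immune ligands were likewise past 2-fold in one direction, with 9 of 17 at least 2-fold higher, none lower and a median of 1.17. Of all genes, 13.8% were higher and 7.98% lower. Cxcl5, a neutrophil attractant, had 115 to 4072 CPM (median 207) in high and 0 to 1466 CPM (median 55.1) in low cells, a difference of 2.95; library 21 held 43.4% of the high sum, and 1 high cell exceeded every low cell. Cxcl16, a membrane-bound chemokine, had 45.5 to 338 CPM (median 117) against 0 to 292 CPM (median 46.1), a difference of 2.59. Il33, an alarmin of epithelial nuclei, had 0 to 380 CPM (median 182) against 0 to 330 CPM (median 68.4), a difference of 1.71. Cxcl1 (2.58), Cxcl3 (1.72), Ccl20 (1.18), Cx3cl1 (1.37), Il1a (1.17) and Vegfa (1.55) made up the 9. The sets overlapped in each of these genes. In the middle cells Cxcl5 and Il33 had a rho with Spp1 of 0.32 and 0.35, Cxcl16 of −0.23, and the list a median of 0.09.

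Matrix genes gave 5 higher and no lower of 15 compared, with a median of 0.73, beside 13.8% and 7.98% of all genes. Fn1, fibronectin, a ligand shared with osteopontin's integrin receptors, had 0 to 272 CPM (median 46.2) in high and 0 to 108 CPM (median 0) in low cells, a difference of 3.78, and was above 0 in 11 and 5 cells. Fbln1, fibulin-1, a matrix glycoprotein, had 0.558 to 55.95 CPM (median 23.004) against 0 to 3.64 CPM (median 0), a difference of 3.65, with 9 high cells above every low cell. The laminin chain Lamb1 (1.79), Ecm1 (2.35) and the matricellular Cyr61, now Ccn1 (1.80), were also among the higher members of the list. Cyr61 had a median of 372 CPM in the middle cells, above both the 189 CPM of high and the 24.8 CPM of low cells.

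Epithelial genes were lower more than higher, with 1 of 15 higher and 5 lower and a median of −0.31, beside 13.8% and 7.98% of all genes. The other 9 were within 2-fold, among them Krt8 (−0.79), Krt18 (−0.10), Krt19 (−0.30), Cdh1 (−0.31), Cldn3 (0.46) and Tjp1 (0.78). Epcam, an epithelial adhesion molecule, had 0 to 73.7 CPM (median 0) in high and 0 to 302 CPM (median 77.1) in low cells, a difference of −4.22. It was above 0 in 2 of 12 high cells (16.7%, exact 95% interval 2.09% to 48.4%) and 9 of 12 low cells (75%, 42.8% to 94.5%), also after thinning. Cldn7, a tight junction claudin, had 0 to 78.8 CPM (median 21.7) against 0 to 596 CPM (median 201), a difference of −1.96. The 3 low cells without Epcam, libraries 6, 31 and 48, had at most 10.5 CPM of Cldn7, while 8 of the 9 low cells with Epcam had at least 91.9 CPM and library 5 had none. Spint1, an inhibitor of membrane serine proteases, differed by −3.95, the desmosomal Dsp by −1.53 and Elf3 by −1.10, whereas the tight junction gene Ocln was 1.58 higher. Most middle cells also lacked Epcam, with a median of 0, and its rho with Spp1 among them was −0.07. Tspan13 had a rho with Epcam of 0.47 over the 50 cells and 0.53 over the middle cells. Mesenchymal genes gave 4 higher (S100a4, Fn1, Cald1 and Cdh2) and none lower of 16, beside 13.8% and 7.98% of all genes. Their median difference was 0.26. Vim was within 2-fold, at −0.30. Cald1, at 1.05, and Cdh2, at 1.01, came to 0.55 without library 32 and 0.69 without library 18. They were under 2-fold without any 1 of 9 and of 12 cells.

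The lysosome list had 5 higher and none lower of 19, with a median of 0.46, beside 13.8% and 7.98% of all genes. Ctsc, a cathepsin that activates granule proteases, had 161 to 703 CPM (median 278) in high and 0 to 700.3 CPM (median 155) in low cells, a difference of 1.73 and a rho of −0.17 in the middle cells. The sets overlapped, and 1 high cell exceeded every low cell. The aspartic protease Ctsd differed by 1.34, the cathepsin Ctsh by 1.34 and the saposin precursor Psap by 1.04. The count was 3 without library 14, when Ctsd came to 0.79; Ctsd was under 2-fold without library 55 as well. Ctsh turned to −0.24 as the log2 ratio of mean CPM.

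Respiratory chain genes gave 3 lower and none higher of 22, with a median of −0.10, beside 7.98% lower and 13.8% higher of all genes. Cycs, cytochrome c, differed by −1.04, Uqcrc1 of complex III by −1.06 and Sdha of complex II by −1.10. All 3 came within 2-fold without library 19, at −0.58, −0.35 and −0.53. Cycs did so also without library 24, 5, 35 or 7, Uqcrc1 without library 1 or 32, and Sdha without library 1. Galectin-4 (Lgals4), an intestinal lectin among the secreted epithelial genes, had 0 to 3256 CPM (median 1092) in high and 1119 to 6037 CPM (median 1892) in low cells, a difference of −1.51 that was −0.65 without library 50, the only high cell at 0. The iron exporter Slc40a1 had 0 to 135 CPM (median 24.1) against 0.271 to 204 CPM (median 83.2), a difference of −2.20 that no single cell decided.

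Over all 28 lists, 457 distinct genes were compared, of which 80 (17.5%) were at least 2-fold higher and 33 (7.22%) at least 2-fold lower, beside 13.8% and 7.98% of all genes.

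Osteopontin is also a macrophage product, and 2 genes of the macrophage marker list were higher in osteopontin-high cells: the lipopolysaccharide co-receptor Cd14, with 86.4 to 485 CPM (median 159) in high and 0 to 216 CPM (median 62.9) in low cells (difference 2.35), and the mannose receptor Mrc1, with 0 to 201 CPM (median 79.2) against 0 to 153 CPM (median 8.29) (difference 3.12). The summed list ran from 116 to 525 CPM (median 244) in high and from 0.808 to 369 CPM (median 81.2) in low cells. Of the other markers, Cd68 differed by 0.66 and Itgam by 0.10, and Ptprc and Cybb, under the detection minimum, were above 0 in high cells but in no low cell. Lyz2, Adgre1, Csf1r, C1qa, C1qb, Tyrobp, Fcer1g and Aif1, 8 of the 14 with a row, were above 0 in none of the 50 libraries. Of acinar markers, Prss2 and Cela1 were above 0 in 5 high cells and no low cell (up to 26.5% of low cells by the exact 95% limit), at up to 32.8 and 64.6 CPM. Of 10 fibroblast genes, 6 were at 0 in all 50, among them Col1a2, Dcn, Lum and Pdgfrb, while Acta2 reached 104 CPM in a high cell and differed by 0.55. Of 10 endothelial genes, 6 were at 0 in all 50, among them Pecam1, Cdh5 and Kdr, while Egfl7 differed by −1.20, with up to 215 CPM in a low cell; it was −0.69 without library 14 and also under 2-fold without library 41 or 48. The part of these genes in the differences between the sets was not tested.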

How the data were processed

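Gene values are estimated counts that the authors deposited as 1 table; kallisto and mouse build mm9 come from the submitters' processing notes, and the sources used here give no version, annotation or strand handling. Of values above 0, 66.2% were whole within 1e-06. The table held 19112 gene rows and 65 spike-in rows; 17937 symbols matched as given, 1101 after restoring altered names, and 74 stayed unmatched. No 2 libraries were identical.

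Counts were used unrounded, except for thinning. CPM used gene rows only, and differences are of the mean log2(CPM + 1) with a pseudocount of 1; such differences understate low genes. Genes above 0 in at least 10 of 50 libraries were compared, and 2-fold meant a difference of at least 1. No test, count model or doublet caller was run, since cells of 1 culture are not replicates. Exact Clopper-Pearson 95% intervals cover sampling of cells only. Members and gene lists were chosen with earlier results of these data known.

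Named genes were Spp1; the 20 largest and 20 most negative differences among genes above 0 in at least 12 of the 24 cells, with mean and median difference both at least 1 and of like sign, without ribosomal protein genes; every receptor, family and regulator gene measured; up to 4 members of highest level per other list, with other members given by their difference, a few of which are not reported here; and the 10 highest and lowest rho among 9281 genes above 0 in at least 25 libraries. Alternatives covered pseudocount, filter, scaling, set size, label blocks and leaving out each cell. Scripts were tested on simulated data. Python 3.11.15, NumPy 2.4.6, pandas 2.3.3 and SciPy 1.17.1 were used; promoters came from RefSeq (GRCm38.p6).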

Additional observations from a re-analysis of the deposited data

Results flagged for a closer look

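The 12 libraries with 20% or more spike-in counts were in neither set. Spp1 had more than 3 counts in 11 of these 12, from 0 to 7464 CPM (median 727), although they held 112196 to 1133750 gene counts. In 11 of the 12 Spp1 lay under the highest value of the low set, and in none did it reach the range of the high set. Their spike-in share was 22.3% to 97.2%, against 0.190% to 1.83% in the other 50.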

How the results depend on the processing

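Higher and lower genes numbered 2767 and 1644 with a pseudocount of 0.1 CPM, 294 and 206 with 10 CPM, and 2572 and 492 after spike-in scaling. Lower genes were 1459 with 8 cells and 499 with 16 cells in each set. List members that were higher numbered 37 with 10 CPM, 130 with spike-in scaling and 51 by the ratio of mean CPM; lower ones 52 with 0.1 CPM, 12 with 10 CPM, 17 with spike-in scaling and 51 with 8 cells. Without the 4 lowest cells, an alternative chosen after seeing the data, 50 members were lower, 1 receptor and 3 lysosome genes higher. With 10 CPM, chemokines counted 5 higher, receptors 0, regulators 1, matrix genes 3, lysosome genes 2 and epithelial genes 3 lower. Receptors counted 1 with 16 cells, 1 by the ratio of means and 4 by medians; regulators 3 by the ratio; matrix genes 8 with 0.1 CPM and 8 with spike-in scaling; lysosome genes 9 with spike-in scaling and 0 by the ratio. Epithelial lower genes were 3 among genes in at least 25 libraries and 9 with 8 cells. Leaving out 1 cell gave 3 (without library 14) to 7 lysosome genes, 1480 to 1859 higher and 812 to 1130 lower genes. Egr1, an immediate early gene at −1.07, turned to 0.12 by the ratio and 0.23 by medians; Ctsh to −0.10 with 8 cells and −0.24 by the ratio. The 10 genes of highest rho had a median of 0.31 over 26 libraries. The cause of these shifts was not tested. The hypoxia list stayed within 7 to 13 higher under every alternative run. The split of 2-fold differences was 77.9% higher with 16 cells, 70.4% with label blocks centred and 48.02% by the ratio.

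No paired analysis was possible because the label numbers each name 1 cell and no 2 groups share them. One culture, 12 cells a set and a ranking on the same counts limit what these differences cover; genes near 0 depend most on the pseudocount.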

Other observations

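All 24 actin and thymosin genes were within 2-fold, as were all 8 MHC class I genes compared; Tmsb4x, thymosin β4, had 570 to 15553 CPM (median 6697) in high and 2375 to 7691 CPM (median 3705) in low cells, a difference of 0.63. G2 and M phase genes gave 4 higher and 1 lower of 32, with a median of 0.39, beside 13.8% and 7.98% of all genes. Their summed level overlapped widely, with 246 to 17892 CPM in high and 1298 to 18406 CPM in low cells. All 32 had a positive rho with Spp1 in the 26 middle cells (median 0.24), where 57.8% of all genes did. Over the 50 cells their median rho was 0.14. Ckap2l, a spindle protein, had 0.112 to 550 CPM (median 269) in high and 0 to 414 CPM (median 123) in low cells, a difference of 2.46, and Ndc80 of the kinetochore differed by 1.98. S phase genes gave 3 higher and 4 lower of 31, beside 13.8% and 7.98% of all genes. Sterol synthesis genes gave 4 higher and 1 lower of 24, beside 13.8% and 7.98% of all genes; Lss, lanosterol synthase, differed by 1.62, and 20 of the 24 had a positive rho in the middle cells.

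Ductal genes gave 4 higher and none lower of 13, with a median of −0.23, beside 13.8% and 7.98% of all genes. Onecut2, a transcription factor of ductal and endocrine lineages, had 47.9 to 671 CPM (median 207) in high and 1.37 to 585 CPM (median 87.6) in low cells, a difference of 1.49; the others were Prom1 (2.52), Car2 (1.77) and Slc4a4 (1.13), and Slc4a4 was under 2-fold without any 1 of 10 cells.

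Secreted epithelial injury genes gave 2 higher and 2 lower of 9, beside 13.8% and 7.98% of all genes. Ceruloplasmin (Cp) had 0 to 519.9 CPM (median 32.3) in high and 0 to 28.3 CPM (median 0) in low cells, a difference of 3.41, Il33 differed by 1.71, Lgals4 by −1.51 and Wfdc2 by −1.67, which came to −0.99 without library 2. Genes of the unfolded protein and amino acid response gave 1 higher and 2 lower of 20, beside 13.8% and 7.98% of all genes. The higher one was the cystine transporter Slc7a11 (2.07). The lower ones were Herpud1 (−1.41, −0.89 without library 19, and also under 2-fold without library 50) and Chac1 (−1.95). The p53 targets gave 3 higher, Btg2 (2.45), Pmaip1 (1.55) and Bbc3 (1.38), and 1 lower, Plk2 (−2.69), of 19, with a median of 0.14, beside 13.8% and 7.98% of all genes. Sprr1a, a cornified envelope protein, reached 3211 CPM in 1 high cell and 2282 CPM in the next, and 4 high cells exceeded every low cell. Its median in the high set was 0.0523 CPM. The difference was 2.78, and 0.07 by medians.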
